A study of Mus musculus with 11 samples.

Results

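The Lilrb and Fc receptor family described here comprises 10 genes of the 15453 listed for epididymal white adipose tissue (eWAT). They are the inhibitory receptors Lilrb3, Lilrb4, Pilra, Sirpa and Fcgr2b, the activating IgG receptors Fcgr1, Fcgr3 and Fcgr4, and the signalling adaptors Fcer1g and Tyrobp. The genes were picked by symbol as leukocyte inhibitory receptors, Fc receptors and adaptors, and the result of the genotype comparison was already known when they were picked. Their differences between genotypes are therefore given as descriptions with standard errors and intervals. Where members past a threshold of the fit over all genes are counted, the count stands beside the same share of all genes and is not evidence about the family.

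Gene expression was measured by SOLiD SAGE, in which each mRNA gives 1 short tag next to its last NlaIII cutting site, in 6 wildtype (WT) and 5 Mest pKO male mice. All mice were C57BL/6 (C57BL/6J in the study's methods), were 16 weeks old and had been fed a high fat diet since early adulthood, and the 2 genotypes shared strain, age, tissue and diet. Mest is an imprinted gene expressed almost entirely from the allele of the father. The pKO mice inherited from their father an allele lacking Mest exon 3, which had been removed in every tissue by an Ella-cre transgene in an earlier generation, so the deletion was not restricted to adipocytes or to leukocytes. Each library came from 1 mouse, and the tissue was powdered whole, so adipocytes, macrophages, vessels and mesothelium were measured together.

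Immunoreceptors of this kind work in opposing pairs. Activating Fc receptors bind the constant part of IgG and signal through a small partner chain, such as the Fc receptor gamma chain encoded by Fcer1g, whose ITAM motif is phosphorylated and then recruits the kinase Syk. Tyrobp encodes DAP12, a second ITAM adaptor that serves receptors such as Trem2. Inhibitory receptors carry ITIM motifs instead, which recruit phosphatases, such as SHP-1 and SHP-2 for some of the receptors, and dampen the ITAM signal. In obese adipose tissue these receptors are known mainly from macrophages.

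A tag that the annotation predicts for each gene, that of 1 chosen transcript, is shown first, because a SAGE value rests on such short sequences alone. The 27 letters of each tag were read 5′ to 3′ from GENCODE transcripts (mouse build GRCm38), and the capitals mark the NlaIII site at which the tag begins. All 10 genes were matched to the annotation, 8 by their own symbol, Lilrb3 under the current symbol Pirb and Lilrb4 under the current symbol Lilrb4a. The tags of the inhibitory receptors were as follows.
Lilrb3: CATGccttccatctcagaactaaggag
Lilrb4: CATGaataaatgtataagcaaagaaag
Pilra: CATGggtggtcaataaatttgaaacct
Sirpa: CATGtgtatacacacacgggtgtatag
Fcgr2b: CATGgtacagtgtagataattatgcat
The tags of the activating Fc receptors and of the adaptors were the following.
Fcgr1: CATGcagacacagacatatgaacaaga
Fcgr3: CATGtatatttttaaacaagagacagg
Fcgr4: CATGctttgagcagcagaaataataca
Fcer1g: CATGagaaaccaccccagtagcttcag
Tyrobp: CATGggggctctggagccctcctggtg

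Of the 10 tags, 9 were found at the last NlaIII site of no other annotated gene. The Lilrb4 tag was shared with the overlapping locus Gm49339, so reads of these loci cannot be told apart, and the tag began 36 bases from the end of the annotated transcript. The Lilrb3 tag lay in exon 15, in the 3′ UTR, at chr7:3712106-3712132 on the minus strand, 724 bases from the transcript end (distances are counted from the first letter of the tag). Its nearest neighbour among the tags of other genes, that of Mical2, differed at 3 letters. Fcer1g and Tyrobp stood apart in having a single NlaIII site in the transcript shown, and both tags lay in coding sequence. The Fcer1g tag was in exon 5 at chr1:171229859-171229885 on the minus strand. The Tyrobp tag was in exon 1 at chr7:30413838-30413864 on the plus strand, 514 bases from the end of a transcript of 564 bases, and at 70.4% it had the highest share of G and C of the 10 tags. The tags of the other 8 genes lay in 3′ UTRs. Fc receptor genes and the gene of their partner chain were neighbours on chromosome 1, Fcgr2b at chr1:170958617-170976547, Fcgr4 at chr1:171018920-171029761, Fcgr3 at chr1:171051174-171064935 and Fcer1g at chr1:171229572-171234365. Some genes had further annotated tags. The 4 protein-coding transcripts of Fcgr2b had 3 distinct tags, and the one shown belonged to 1 of them. Pilra had 4 tags, 1 of them cut short by the transcript end, with the shown tag in 1 of 4 transcripts. Of the 4 protein-coding transcripts of Lilrb4, all but 1 had their last NlaIII site where the shown tag begins. Their tags differed only in being cut short by the transcript end, and 1 had the full tag shown. For Sirpa 6 of 9 and for Fcgr3 2 of 3 protein-coding transcripts had the shown tag. Which tag or tags the authors' software assigned to each gene is not given in the sources used here.

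The libraries of the WT mice held 9659740 to 14825727 tags, and those of the pKO mice 11320342 to 14626803. Values are given below as normalized tags, the tags of a gene divided by the size factor of its library. Mest, the deleted gene, lay between 20756 and 27897 in the WT mice and between 793 and 2275 in the pKO mice, so no library went against its label. The adipocyte gene Adipoq was abundant in every mouse, at 59638 to 81109 in WT and 53365 to 88529 in pKO mice, and the macrophage genes Emr1 (which encodes F4/80) and Csf1r (the receptor for macrophage colony stimulating factor) were present in all 11. WT replicates 2 and 5 stood apart from the rest. In both of them 32 of the 9906 genes whose mean reached 50 normalized tags in a genotype, Tyrobp among them, were under 50% of the lowest of the other 9 mice. The median of this count over the 55 possible pairs of mice was 1, and the highest, 43, was that of pKO replicates 3 and 5, with no member among its genes. Member differences between genotypes that rest on these WT mice are given with and without them.

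Since SAGE gives 1 tag per mRNA, levels need no correction for length, but tags of different genes may be recovered unequally. The order below is one of tag counts, and how well it follows the amounts of mRNA was not tested. The most abundant member was Fcgr2b, the inhibitory receptor for IgG, with 2782 ± 610 normalized tags (SD, n = 6) in WT mice (means are given ± SD over 6 WT or 5 pKO mice from here on), and only 669 of all genes had a higher WT mean. Fcer1g at 1109 ± 468 and Fcgr3 at 981 ± 162 came next, and their ranges overlapped in both genotypes. Sirpa had 563 ± 375 and Lilrb4 449 ± 64.7, again with overlapping ranges. Below them were Tyrobp at 178 ± 113, Lilrb3 at 135 ± 19.8, Fcgr1 at 124 ± 28.9 and Pilra at 74.1 ± 17.0, each of which overlapped with its neighbour in this order in WT mice. Fcgr4 was the scarcest at 13.4 ± 4.06, its range lay below that of Pilra in both genotypes, and it was counted with only 2 to 18 tags in a library. The order of the means was the same in pKO mice except that Fcgr1 came before Lilrb3.

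**Figure D1:**
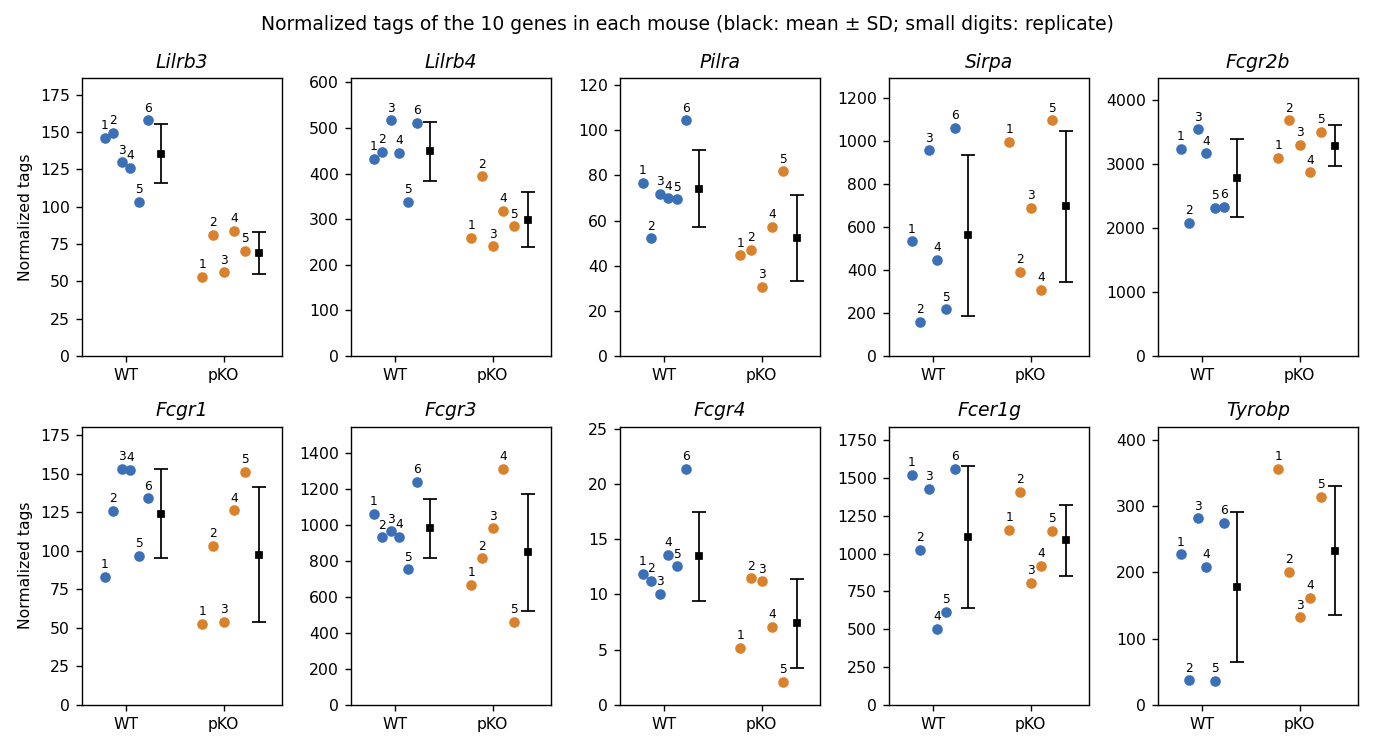
Normalized tags (vertical axis, linear and starting at 0, a scale of its own for each gene) of the 10 genes in each of 6 WT mice (blue) and 5 pKO mice (orange). Black squares and bars are the mean ± SD of a genotype, and small digits are replicate numbers. Lilrb3 is the gene whose 5 pKO points (53.2 to 83.8) all lie below its 6 WT points (103 to 158), and the lowest Tyrobp points are WT replicates 2 and 5.

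Among the 5 inhibitory receptors, Lilrb3, Lilrb4 and Pilra had lower means in pKO mice, and Sirpa and Fcgr2b had higher means. Lilrb3 (also PIR-B), a receptor for class I MHC molecules on myeloid and B cells, ranged from 103 to 158 normalized tags in WT mice with a median of 138. The 5 pKO mice had 53.2, 81.4, 56.0, 83.8 and 70.6. The ranges did not overlap, and the pKO mean was 51.0% of the WT mean. On the log2 scale, after adding a pseudocount of 1, the pKO minus WT difference was -0.97 with an SE of 0.17 (95% interval -1.34 to -0.60). The values behind it were 107 to 160 tags in a WT library and 55 to 95 tags in a pKO library.

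Lilrb4 (gp49B), an ITIM receptor of mast cells and macrophages, ranged from 339 to 517 in WT mice with a median of 446. The pKO mice had 258, 394, 240.1, 319 and 284. Of the 5 pKO mice 4 lay below every WT mouse, and pKO replicate 2 lay within the WT range. The log2 difference was -0.59 with an SE of 0.16 (95% interval -0.93 to -0.26).

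Pilra, an ITIM receptor that binds CD99 among other ligands, ranged from 52.2 to 104 in WT mice with a median of 70.9, and the pKO mice had 44.6, 47.0, 30.5, 57.4 and 81.9. Here 3 of the 5 pKO mice lay below all WT mice, while pKO replicate 5 was above the WT median. The log2 difference was -0.54 with an SE of 0.24 (95% interval -1.06 to -0.02).

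Sirpa encodes the receptor through which CD47 on other cells restrains phagocytosis. It varied most among the inhibitory receptors, from 159 to 1062 in WT mice with a median of 491, and the pKO mice had 999, 392, 691, 307 and 1098. The genotypes overlapped almost entirely, and the ratio of the highest to the lowest mouse was 6.70 in WT and 3.58 in pKO mice. The log2 difference of 0.46 had an SE of 0.49, and it was -0.18 when WT replicates 2 and 5, the lowest in Sirpa, were left out.

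Fcgr2b, the ITIM receptor that opposes the activating IgG receptors, ranged from 2082 to 3546 in WT mice with a median of 2751, and the pKO mice had 3096, 3687, 3301, 2874 and 3503. Only pKO replicate 2 was above all WT mice. The log2 difference was 0.27 with an SE of 0.16 (95% interval -0.07 to 0.60), and 0.11 without WT replicates 2 and 5.

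All 3 activating IgG receptors had lower means in pKO mice, and the ranges overlapped for each. Fcgr1, the high affinity receptor, ranged from 83.1 to 153 in WT mice with a median of 130.0, and the pKO mice had 52.4, 103, 53.9, 126 and 151. The pKO mice were thus split, replicates 1 and 3 lying below all WT mice and the other 3 within the WT range. The log2 difference was -0.44 with an SE of 0.29.

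Fcgr3, a low affinity receptor and the most abundant activating one, ranged from 753 to 1242 in WT mice with a median of 949, and the pKO mice had 667, 815, 982, 1311 and 459. One pKO mouse lay above the WT range and 2 lay below it. The log2 difference was -0.28 with an SE of 0.23.

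Fcgr4, a receptor of monocytes, macrophages and neutrophils, ranged from 10.03 to 21.4 in WT mice with a median of 12.2, and the pKO mice had 5.15, 11.5, 11.2, 7.06 and 2.05. Of these, 3 lay below all WT mice. The log2 difference was -0.92 with an SE of 0.37, but the gene was below the mean of 50 normalized tags that a gene needed in at least one genotype to be counted as called.

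The summed activating receptors (Fcgr1, Fcgr3 and Fcgr4) were 0.418 ± 0.112 of Fcgr2b in WT mice (n = 6) and 0.296 ± 0.126 in pKO mice (n = 5). The WT ratios ran from 0.318 to 0.600 and the pKO ratios from 0.175 to 0.502. In pKO replicate 4 the ratio was the highest of its genotype and within the WT range, and in the other pKO mice it was below the lowest WT ratio. For pKO replicate 3 the margin was small, with 0.3172 against 0.3182 in WT replicate 3. The ratio is built from the same values as above and is given without a test.

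The adaptors differed from each other in how they varied. Fcer1g ranged from 500.1 to 1560 in WT mice with a median of 1226, and the pKO mice had 1157, 1409.6, 805, 921 and 1152. The pKO values all lay inside the WT range, and the log2 difference of 0.08 had an SE of 0.29, with -0.09 when WT replicates 2 and 5 were left out.

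Tyrobp had 227, 36.8, 282, 209, 35.7 and 275 normalized tags in WT replicates 1 to 6, and 356, 201, 132, 162 and 314 in pKO mice. WT replicates 2 and 5 were counted with 36 and 37 Tyrobp tags, while every other library had at least 130, and the remaining 4 WT mice lay between 209 and 282. Over all mice the log2 difference was 0.73 with an SE of 0.57 (95% interval -0.49 to 1.95). Without these WT mice it was -0.18, so its sign depended on them. Fcer1g was not low in the same way, since WT replicate 2 had 1026, and the lowest Fcer1g values, 500.1 and 617, were in WT replicates 4 and 5. The ratio of Fcer1g to Tyrobp accordingly ran from 2.40 to 27.9 in WT mice and from 3.25 to 7.03 in pKO mice. It was 27.9 and 17.3 in WT replicates 2 and 5 and between 2.40 and 6.69 in the other WT mice.

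**Figure D2:**
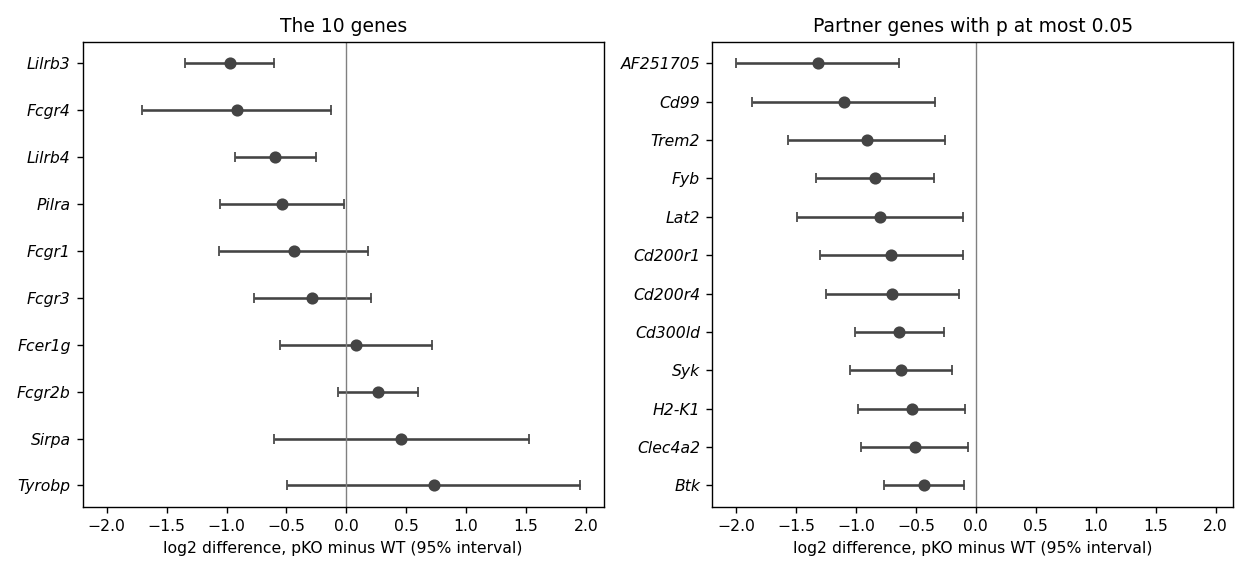
Difference between genotype means (horizontal axis, pKO minus WT, log2 of normalized tags plus 1) with its 95% interval from limma, for the 10 genes (left) and for the 12 partner genes named by the call rule (right), which passed the unadjusted threshold. Lilrb3 at -0.97 and Lilrb4 at -0.59 have intervals below 0, as do Fcgr4 and Pilra, while the intervals of Sirpa and Tyrobp, 0.46 and 0.73, extend to both sides of 0. All 12 partner genes lie below 0.

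A gene was counted as called when limma gave an unadjusted p of at most 0.05 and a genotype mean reached 50 normalized tags, and 9 of the 10 members reached that mean. By this count 3 members (Lilrb3, Lilrb4 and Pilra) were lower in pKO mice and none was higher, where 5.77% of the 9906 genes with such a mean were called lower and 4.85% higher. After Benjamini-Hochberg adjustment over all genes no member passed the threshold of 0.1 in limma or in edgeR, and 2 (Lilrb3 and Lilrb4) passed in DESeq2. In limma 0.0404% of genes were called lower and 0.0101% higher after adjustment. DESeq2 called many more genes than limma, 63 lower and 58 higher, and its member count stands beside those numbers. Ranges that did not overlap, with lower values in pKO mice, were found in 1 of the 9 members, Lilrb3, and in 0.717% of all genes. Lilrb3 also stands on the study's own list of genes chosen on these mice, and all members were picked with these values known, so the shares are printed as background only. The median log2 difference was -0.28 over the 9 members and 0.01 over the 9906 genes.

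The summed macrophage markers, like Lilrb3, Lilrb4 and Pilra, had a lower mean in pKO mice. All 12 markers of the macrophage list were found, and their summed level was 6228 to 9442 in WT and 6131 to 7980 in pKO mice, with means of 8411 ± 1369 and 7126 ± 905. Of the 10 with a mean of at least 50, Cd14, Itgam and Itgax were called lower by unadjusted p and none was called higher. This count stands beside 5.77% of all genes called lower and 4.85% called higher. The limma adjusted p of Cd14, Itgam and Itgax were 0.470, 0.370 and 0.441. Mpeg1, the most abundant marker and so the one with most weight in the sum, had 2870 ± 789 in WT and 2339 ± 396 in pKO mice. Cd163 (593 ± 315 and 671 ± 313) and the scarce Mertk (33.0 ± 9.77 and 41.3 ± 6.79) had higher means in pKO mice. Itgax, the CD11c integrin of adipose tissue macrophages in obesity, had 644 ± 260 in WT and 340.1 ± 132 in pKO mice. Emr1 had 856 ± 151 and 865 ± 271, and Csf1r had 685 ± 116 and 587 ± 138. The part of macrophage content in the receptor differences was not tested, and in bulk tissue fewer cells of a type and less RNA per cell cannot be told apart.

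Expressed per 1000 tags of the macrophage list, Lilrb3 had 16.3 ± 2.62 in the 6 WT and 9.63 ± 1.11 in the 5 pKO mice. The WT values ran from 13.5 to 20.8 and the pKO values from 8.55 to 11.1, so the ranges did not overlap on this scale either. Lilrb4 had 53.7 ± 5.24 and 42.0 ± 6.90, with overlapping ranges. Fcgr2b had 332 ± 52.7 and 468 ± 69.8, and its ranges overlapped only between 360.1 and 377. The summed markers differed by -0.23 on the log2 scale, and this shift moved the log2 difference of Lilrb3 from -0.97 to -0.74, of Fcgr3 from -0.28 to -0.05 and of Fcgr2b from 0.27 to 0.50. The ratio of Lilrb3 to Lilrb4, which shares no markers, was 0.303 ± 0.032 in WT and 0.231 ± 0.025 in pKO mice with ranges of 0.251 to 0.338 and 0.206 to 0.263.

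**Figure D3:**
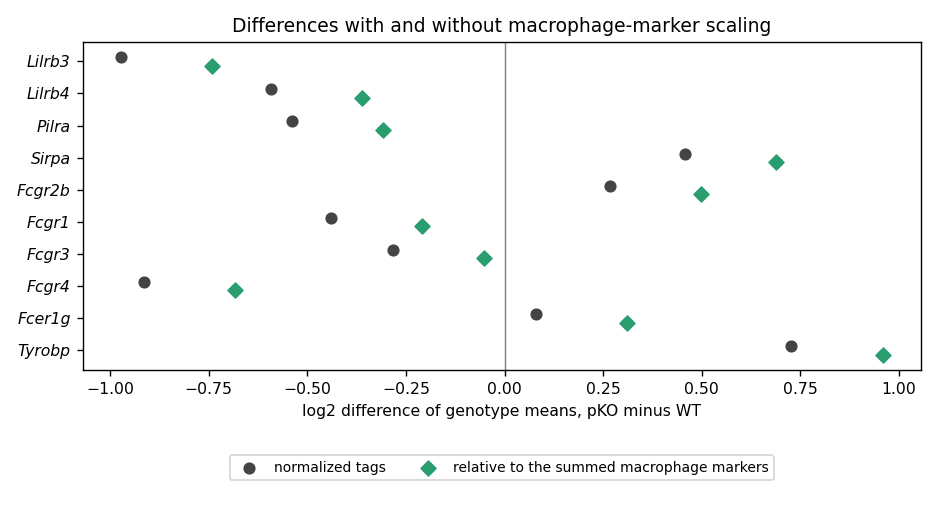
Log2 difference of genotype means (horizontal axis, pKO minus WT) of each gene on normalized tags (grey circles) and after dividing by the summed macrophage markers of the same mouse (green diamonds). Every diamond lies 0.23 to the right of its circle, because the division adds the same value for each gene. The order of the genes is therefore fixed, with Lilrb3 lowest on both scales (-0.97 and -0.74).

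Markers of other leukocytes that carry these receptors were also summed. Only 5 of the 10 neutrophil markers were found, with sums of 88.6 to 153 (WT) and 88.3 to 215 (pKO). The NK and T cell markers summed to 72.6 to 174 in WT and 98.7 to 154 in pKO mice, with Cd3g and Ncr1 at 0 in at least one mouse. The B cell markers summed to 190.3 to 287 and 179 to 394, with Ms4a1 at 0 in at least one mouse, and the mast cell markers to 546 to 847 and 591 to 1198. Most of these markers were too scarce to be called, since the mean of 50 was reached by 1 neutrophil, 0 NK and T cell, 2 B cell and 5 mast cell markers, and none of these was called in either direction. Among the scarcer ones, limma gave an unadjusted p of 0.0182 for the T cell kinase Lck (23.8 ± 4.35 in WT and 12.4 ± 8.45 in pKO mice) and of 0.0361 for the neutrophil gene S100a9 (14.5 ± 4.97 and 24.5 ± 10.5). Of the 8 adipocyte markers, Pnpla2 was called higher in pKO mice and none lower. Of the 7 mesothelial and endothelial markers with a mean of at least 50, Msln, Krt19 and Kdr were called higher and none lower. These calls stand beside 4.85% of all genes called higher and 5.77% called lower. The limma adjusted p of Pnpla2, Msln, Krt19 and Kdr were 0.370, 0.517, 0.253 and 0.438. Lower pKO means were seen for the adipocyte genes Lep and Lipe and the endothelial genes Pecam1 and Tek. Their log2 differences were -0.49, -0.22, -0.39 and -0.23. The remaining markers on these lists had higher pKO means. The part of these cell types in the member values was not tested.

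The signalling partners of these receptors were taken from lists of 106 other genes, grouped as paired receptors, other Fc receptors, signalling proteins and ligands. Of these, 83 were found and 48 had a mean of at least 50. Among the 48, limma called 15 (31.2%) lower in pKO mice by unadjusted p and none higher, beside 5.77% and 4.85% of all genes. None passed after adjustment in limma or edgeR, and 2 passed in DESeq2, which called 63 of all genes lower and 58 higher. The median log2 difference was -0.36 over the 48 partners, and 42 of them had a lower mean log2 value in pKO mice, against 48.7% of all 9906 genes. The lists were compiled with results of these mice known.

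Of the 14 paired receptors with a mean of at least 50, 8 were called lower and the other 6 also had lower means. AF251705, a gene given under a sequence name, which the study itself chose on these mice, had 240.0 ± 62.6 in the 6 WT and 107 ± 69.2 in the 5 pKO mice, a log2 difference of -1.32 with an SE of 0.32. Trem2, a lipid sensing receptor of macrophages that signals through Tyrobp, had 602 ± 122 and 349 ± 152. Cd300ld had 167 ± 10.7 and 110.1 ± 33.7. Cd200r1, the inhibitory receptor for CD200, and its activating relative Cd200r4 had log2 differences of -0.71 and -0.70. Clec4a2, an ITIM bearing lectin, had -0.51. The most abundant members of the list, Pecam1 and Clec4a1, had log2 differences of -0.39 and -0.28 and were not called. Pilrb1 and Pilrb2, the activating partners of Pilra, named here after their values were seen, had -0.20 and -0.07 and were not called either.

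On the list of other Fc receptors, 2 genes had a mean of at least 50. Fcrls, an Fc receptor like gene of macrophages and microglia, had 1859 ± 279 in the 6 WT and 1531 ± 87.5 in the 5 pKO mice, was called lower and had ranges that did not overlap. Its lowest WT value, 1588, was almost equal to its highest pKO value, 1587. Fcgrt, the neonatal Fc receptor that recycles IgG and albumin, had 1639 ± 771 and 2222 ± 621 and was not called.

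Of the 25 signalling genes with a mean of at least 50, limma called 4 lower and none higher. Syk, the kinase that binds phosphorylated ITAMs, had 399 ± 83.4 in the 6 WT and 261 ± 73.0 in the 5 pKO mice, a log2 difference of -0.62 with an SE of 0.20. The adaptors Fyb and Lat2 had log2 differences of -0.84 and -0.80, and the kinase Btk had -0.43. Ptpn11, which encodes SHP-2, one of the phosphatases that ITIMs recruit, had 1467 ± 770 and 1554 ± 356, and the adaptor Grb2 had 3921 ± 493.1 and 4264 ± 406. Neither was called.

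Of the 7 ligands with a mean of at least 50, limma called 2 lower and none higher. Cd99, a ligand of Pilra, had 2088 ± 151 in the 6 WT and 1161 ± 679 in the 5 pKO mice, with ranges of 1884 to 2256 and 400.0 to 1811 that did not overlap. H2-K1, a class I MHC heavy chain and thus a ligand of Lilrb3, had 4539 ± 800 and 3231 ± 1028. B2m, the light chain of class I MHC, had 45557 ± 10373 and 45226 ± 16422, and Cd47, the ligand of Sirpa, had 5735 ± 342 and 5738 ± 1009. The log2 differences of B2m and Cd47, -0.06 and -0.02, had SEs of 0.25 and 0.13.

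To see how the members varied within a genotype, each value was set against the mean of its genotype on the log2 scale, which removes the difference between WT and pKO mice. WT replicate 5 was below the WT mean in all 10 genes and was the lowest WT mouse in 4 of them. It also had the lowest macrophage sum of the WT mice, 6228, and the highest sum of adipocyte markers, 1092380. WT replicate 6 was above the WT mean in every gene but Fcgr2b, was the highest WT mouse in 6 genes and had the highest macrophage sum of all mice, 9442. Among pKO mice replicate 3 was the lowest in 4 genes and replicate 2 the highest in 4. The part of cell content in these positions was not tested.

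**Figure D4:**
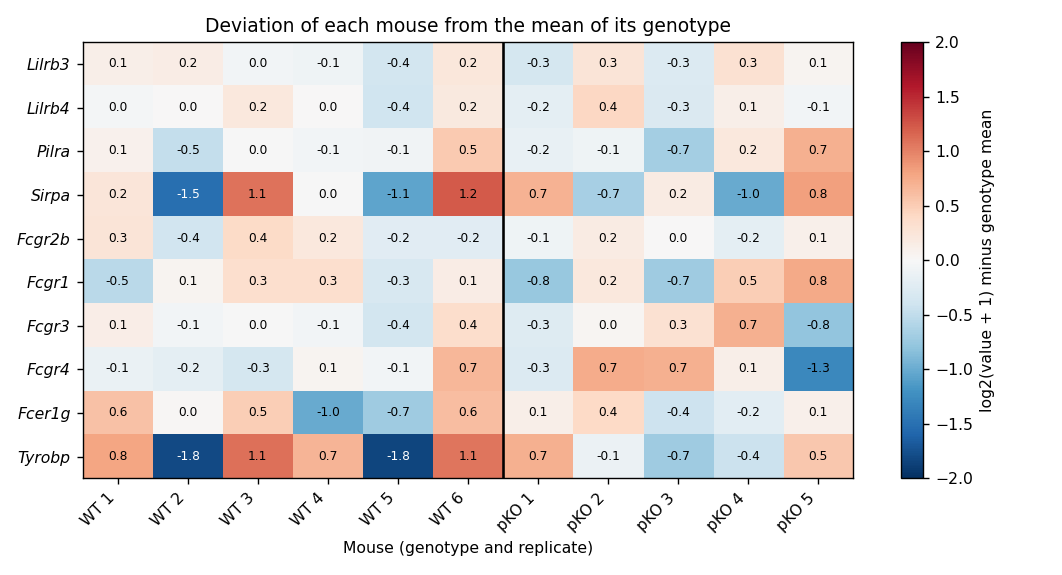
Deviation of each of the 11 mice (columns) from the mean of its genotype for the 10 genes (rows), in log2(normalized tags + 1), red above and blue below the mean, with the vertical line between WT and pKO mice. The 3 darkest blue cells are Tyrobp in WT replicates 5 and 2 and Sirpa in WT replicate 2, followed by Fcgr4 in pKO replicate 5 (-1.29), while Lilrb3 and Lilrb4 stay pale in every mouse.

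Over the 45 pairs of members the median Pearson r of these deviations was 0.18, 33 pairs were above 0 and 10 were above 0.5. Over the 6 WT mice alone, also few for a correlation, the median was 0.40, with 42 of the 45 pairs above 0 and 20 above 0.5. These WT counts include WT replicates 2 and 5 and were not taken without them. Over the 5 pKO mice, too few for a correlation to be read, the median was 0.13 and 29 of the 45 were above 0. The difference between genotypes was not tested. No pair had a permutation p of at most 0.05 after Benjamini-Hochberg adjustment over the 45 pairs. The pair with the highest r was Sirpa and Tyrobp (n = 11, Pearson r = 0.86, permutation p = 0.0039, adjusted 0.143, and Spearman rho = 0.85, permutation p = 0.00399, adjusted 0.18). Its r was 0.78 without the 2 mice farthest from the mean of their genotype in Sirpa (WT replicates 2 and 6). For r without the 2 farthest mice, here and below, deviations were kept from the means of all mice of a genotype. Without WT replicates 2 and 5, with the means taken anew, the r of Sirpa and Tyrobp was 0.69. Lilrb3 and Lilrb4 came next (n = 11, Pearson r = 0.81, permutation p = 0.00637, adjusted 0.143, and Spearman rho = 0.77, permutation p = 0.013, adjusted 0.293), with r = 0.68 without the 2 farthest mice. Fcer1g and Tyrobp, the adaptors, had r = 0.47 and rho = 0.72 (permutation p = 0.253 and 0.0492, adjusted 0.700 and 0.481).

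Of the other 9905 genes with a mean of at least 50, those whose deviations over the 11 mice were most like those of Lilrb3 included Slc6a8 (r = 0.91), Itga4 (r = 0.91), Lair1 (r = 0.90) and Samd8 (r = 0.89). Lair1 encodes an ITIM bearing collagen receptor. Without WT replicate 5 and pKO replicate 1, with deviations kept as they were, these r lay between 0.76 and 0.86. Those most like Tyrobp were Foxr1 (r = 0.97), Prex1 (r = 0.97), Cpa3 (r = 0.97), Itm2c (r = 0.96) and Afap1l2 (r = 0.96). Foxr1 encodes a transcription factor and Cpa3 a protease of mast cells, and none of the 5 is a partner gene. In WT replicates 2 and 5 Foxr1 had 12.3 and 14.5 against 85.5 to 105 in the other WT mice, and Itm2c had 3183 and 3202 against 9052 to 10126. Without these WT mice the r with Tyrobp lay between 0.87 and 0.92. Each r is the highest of many over the same 11 libraries and is given as a description.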

How the data were processed

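SAGE libraries of eWAT from 6 WT and 5 pKO mice, 1 per mouse, were analysed, grouped by the genotype in the labels. Per the study's methods, tag alignment by the authors used their modified SOLiD SAGE analysis program, and the submitters' processing notes name mm10 and edgeR 3.2.3. The annotation, the tag assigned to a gene and the use of strand are not given in the sources used here. The deposited values were a normalized signal, not raw counts. Within a library all 165899 values above 0 were whole multiples of the value of 1 tag (100% within 0.01), which equalled tags divided by a DESeq2 size factor, and no listed gene had fewer than 15 tags over all mice. All pairs of libraries differed by more than sampling noise (lowest chi-square per degree of freedom 18.96 over 55 pairs).

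Log2(value + 1) of all 15453 genes was fitted with limma 3.58.1 (R 4.3.3, eBayes with trend, no covariate), with Benjamini-Hochberg adjustment over all genes. A call needed a mean of at least 50 in a genotype with an unadjusted p of at most 0.05, or an adjusted p of at most 0.1. The recovered tags were fitted with edgeR 4.0.16 (quasi-likelihood) and DESeq2 1.42.0 as alternatives, which called 4 genes lower and 1 higher (edgeR) and 63 lower and 58 higher (DESeq2) after adjustment. The steps were tested on simulated data. Other alternatives were total-tag and TMM scaling, pseudocounts of 0.5 and 10, a filter before the fit, a minimum mean of 20, no variance trend and a robust fit. The replicate number as a block (without WT replicate 6) and leaving out each mouse were also run. Leaving out WT replicates 2 and 5 together was chosen after seeing the data.

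Members, partner and marker lists were chosen with earlier results of these data known. Named genes were all members, up to 12 partners past the unadjusted threshold by smallest p, the 2 most abundant of each partner list, defining markers, and the 5 genes most like Lilrb3 and the 5 most like Tyrobp, of which 1 is not reported here. Correlations used 100000 permutations within genotypes. Mice of a genotype shared no stated batch. Tags were read from GENCODE transcripts of GRCm38. Tags carry no molecular identifiers, and the number of tags limits precision.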

Additional observations from a re-analysis of the deposited data

Results flagged for a closer look

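One value stood apart from the others of its genotype. WT replicate 6 had 21.36 normalized Fcgr4 tags (18 tags counted), and the other 5 WT mice had 10.03 to 13.6. The gap to the nearest WT mouse was 0.686 of the WT range, above the critical value of 0.625 for 6 samples. In all, 32 groups of values were examined in this way, of which chance alone gives about 1 in 20, or 1.6, and 1 was found.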

How the results depend on the processing

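Lilrb3 and Lilrb4 were called lower by unadjusted p under every alternative run, and their log2 differences ranged from -1.05 to -0.89 and from -0.70 to -0.52. Pilra was not called in edgeR, in DESeq2, with the replicate block or in 8 of the 11 fits that left out a mouse. After adjustment, 1 member passed with the filter before the fit (Lilrb3) and 2 passed in DESeq2 (Lilrb3 and Lilrb4). Partner genes called lower after adjustment numbered 2 in DESeq2. All genes called lower after adjustment numbered 8 with the filter and 63 in DESeq2, and those called higher 58 in DESeq2 and 5 without WT replicates 2 and 5. The sign turned for Fcer1g in edgeR (-0.032), in DESeq2 (-0.026), without WT replicate 4 (-0.12), without WT replicate 5 (-0.06), without pKO replicate 2 (-0.02) and without WT replicates 2 and 5 (-0.095), with 0.20 as the highest value without a mouse (WT replicate 6). It also turned without WT replicates 2 and 5 for Sirpa (-0.18) and Tyrobp (-0.18). Of the values of single members under the alternatives, 205 kept their sign and side of the adjusted threshold, 8 turned and 6 newly passed.

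The replicate numbers did not pair the mice, since correlations of same-numbered mice ran from -0.0918 to 0.139. The fit with the replicate number as a block also left out WT replicate 6, so the 2 changes cannot be told apart in it. In that fit, partner genes called by unadjusted p numbered 9 lower and 1 higher, and all genes called after adjustment 1 lower and 0 higher. No pKO mouse correlated best with the WT mouse of its own number.

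Leaving out each mouse gave 2 to 4 members lower and 0 to 1 higher by unadjusted p, and 0 to 2 lower and 0 to 0 higher after adjustment. Fcgr2b was called higher without WT replicate 3, Fcgr3 lower without pKO replicate 4 and Fcgr1 lower without pKO replicate 5. Lilrb3 passed after adjustment without WT replicate 5, and Lilrb3 and Lilrb4 without pKO replicate 2. Partner genes numbered 9 (without pKO replicate 1 or 3) to 20 lower and 0 to 1 higher (without WT replicate 4 or 6) by unadjusted p, and 0 to 3 (without pKO replicate 2) lower and 0 to 0 higher after adjustment. All genes numbered 415 to 844 lower and 328 to 639 higher by unadjusted p, and 2 to 65 lower and 1 to 26 higher after adjustment, the highest counts without pKO replicate 2. The cause of these changes was not tested. Fcgr4, with 2 to 18 tags in a library, is limited by depth.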
